A study of Homo sapiens with 6 samples.

Results

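Small nucleolar RNA host genes are transcription units whose introns release small nucleolar RNAs. The set described here holds 29 of the 26364 genes in the authors' deposited table. It was chosen by name: 21 symbols made of SNHG and a number, the noncoding genes GAS5, ZFAS1, DANCR and MEG8, and the protein-coding genes TAF1D, CCAR1, SF1 and PRRC2A. That gives 25 noncoding and 4 coding genes. No measured value entered the choice, but results of these data were known when it was made.

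The cells were REH, a line grown from a human B-cell precursor acute lymphoblastic leukaemia, and 6 libraries were made. Cells of 3 libraries had been transduced with lentivirus coding for a short hairpin RNA that targets STAT3 (shSTAT3), and those of the other 3 with a scramble hairpin. Both groups underwent puromycin selection for 3 days and dead cell removal, and the series describes 3 independent experiments. The number of STAT3 hairpins used is not given in the sources used here, so that an effect of the hairpin on other genes cannot be told apart from that of less STAT3. The deposited values are a mean over all 6 libraries, a fold change and its p, raw and adjusted, with none per library, so neither the values of single samples nor overlap between groups could be shown. In bulk RNA of this kind, fewer cells of a type and less RNA per cell cannot be told apart.

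Box C/D small nucleolar RNAs guide ribose methylation and box H/ACA ones guide pseudouridylation, mostly of ribosomal RNA. Their relatives in Cajal bodies act on spliceosomal RNA. In vertebrates most of these guides are cut out of introns, and the spliced exons of many noncoding hosts are bound by ribosomes over short reading frames and then removed by nonsense-mediated decay. Many hosts, coding and noncoding, begin with a terminal oligopyrimidine (TOP) tract, a C followed by further C or T bases, which is also found at the start of messenger RNAs for ribosomal proteins and ties their translation to mTOR signalling.

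The starts of some hosts are printed to show this tract. Each line gives 10 bases before and 20 bases from the RefSeq start (GRCh38.p14), read along the gene's own strand, with a run of C and T that begins with C at the start itself in capitals where it is at least 5 bases long.
SNHG4 (chr5:139274091-139274120, plus strand): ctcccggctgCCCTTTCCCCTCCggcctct
SNHG19 (chr16:2155339-2155368, minus strand): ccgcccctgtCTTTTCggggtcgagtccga
ZFAS1 (chr20:49278632-49278661, plus strand): gccattcgttCTTTCgcgtctgcggtgccc
SNHG5 (chr6:85678714-85678743, minus strand): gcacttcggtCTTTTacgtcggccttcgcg
SNHG12 (chr1:28581854-28581883, minus strand): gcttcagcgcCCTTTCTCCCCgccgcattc
TAF1D (chr11:93741476-93741505, minus strand): aatagccaacCCTTTTCTTCCgcacggttg
SNHG20 (chr17:77088633-77088662, plus strand): ttccggccggaagttgctgacggagctact
SNHG21 (chr15:82750554-82750583, plus strand): cggaaagagagtggatttactaggaaggtg
The first 5 are noncoding hosts with a tract, TAF1D is the coding gene of the set that has one, and SNHG20 and SNHG21 are noncoding hosts without. SNHG18, also a noncoding host with a tract, is not printed.

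The authors' deposited table puts STAT3 at 29.8% of scramble (log2 fold change −1.75). It does not name the numerator of its fold changes, and a negative one is read as lower in shSTAT3, STAT3 being the hairpin's target. Of 10 markers of B-cell precursors 9 were tested, with means from 1289 to 20516 normalized counts by the authors' deposited table, and VPREB1 is listed at 0. Of 15 markers of other cells 5 were tested, among them the myeloid gene MPO at a mean of 2330 in the authors' deposited table, and CD3D and EPCAM are listed at 0. Among the tested markers 2 rose and 4 fell for B-cell precursors, and 1 rose and 3 fell for other cells. Their part in the results on the hosts was not tested.

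The noncoding hosts were higher in shSTAT3 cells almost throughout. Of 25 noncoding hosts 21 were tested, meaning that the authors gave them an adjusted p, and by the authors' deposited table a rise was called for 17 of these and a fall for 0 at an adjusted p under 0.05 (DESeq2). The background was high, since 21.3% of all 12061 tested genes rose and 23.2% fell, 44.5% together. All 21 tested noncoding hosts had a positive fold change, as had 6070 of all tested genes, and their median log2 fold change was 0.77, against 0.0027 for all tested genes. A rise of 2-fold or more was called for 8 of them, as for 1.61% of all tested genes. Of the 4 coding genes PRRC2A rose, CCAR1 fell, and SF1 and TAF1D passed in neither direction. The 95% intervals given below are worked out from fold change and p, and hold for the fold changes as the authors deposited them. Whether these fold changes were shrunken toward 0 is not stated in the sources used here, but the values have that pattern. Implied standard errors fell again at the lowest means, to 0.093 for the guide SNORD98 (mean 0.166), against 0.334 for SNORD76 (mean 12.0). Unshrunken fold changes from so few reads would have far larger ones. Fold changes and intervals at low means are therefore probably pulled toward 0.

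**Figure D1:**
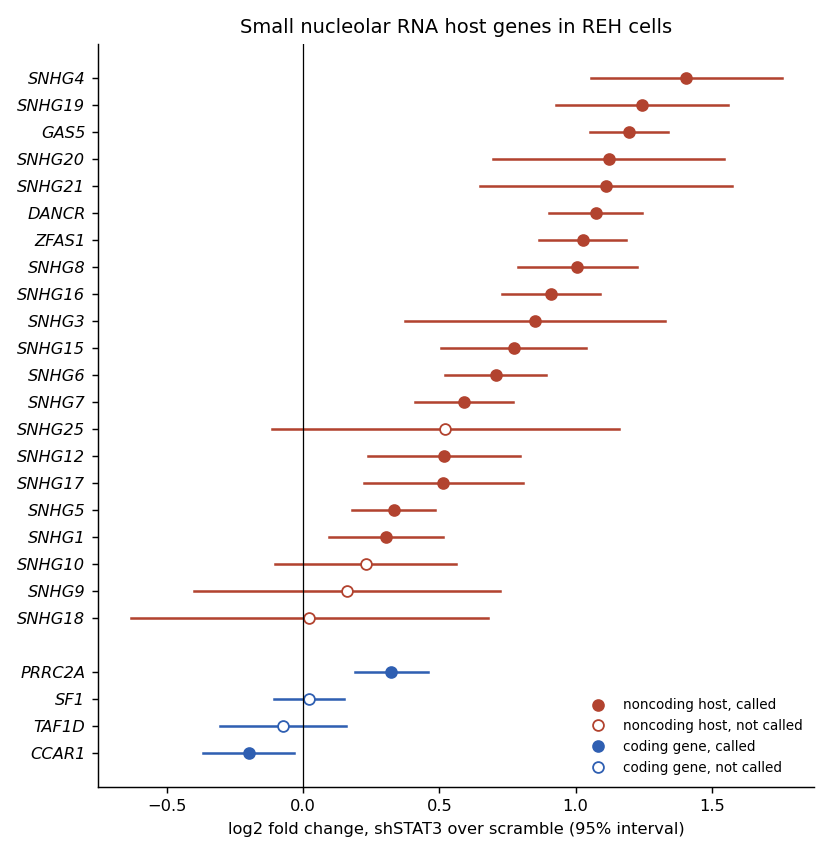
Log2 fold change of shSTAT3 over scramble for the 25 tested genes of the set (points) with 95% intervals implied by the authors' p-values (lines). Filled points passed an adjusted p of 0.05. All 21 noncoding hosts lie right of 0, between 0.02 and 1.41, while the 4 coding genes lie between −0.20 and 0.32.

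Among noncoding hosts of box C/D RNAs alone, 6 of 7 rose and the median log2 fold change was 0.71. ZFAS1, whose introns hold the 3 SNORD12 genes, had a mean of 2664 normalized counts in all libraries, and the authors' deposited table gives it a 2.04-fold rise (log2 scale 1.03, interval 0.87 to 1.19, adjusted p = 4.74e-34). Mean and fold change together imply 3574 normalized counts in shSTAT3 cells, against 1755 in scramble cells. For SNHG19, the short host of SNORD60, the authors' deposited table gives a 2.37-fold rise (log2 scale 1.24, interval 0.93 to 1.56, adjusted p = 2.05e-13). SNHG16, which holds the SNORD1 genes, rose by 0.91 and SNHG6, which holds SNORD87, by 0.71 in log2 units of the authors' deposited table (adjusted p = 3.21e-21 and 1.46e-12). The smallest rises called among noncoding hosts were in this class. SNHG5, the U50 host, was 1.26-fold higher according to the authors' deposited table (log2 scale 0.33, interval 0.18 to 0.49, adjusted p = 0.00011). SNHG1, the U22 host, holds 8 box C/D genes and was 1.23-fold higher according to the authors' deposited table (log2 scale 0.30, interval 0.09 to 0.51, adjusted p = 0.0129). The intervals of SNHG5 and SNHG1 end below the lower ends of those of ZFAS1 and SNHG19.

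GAS5 holds 11 annotated small RNAs, 10 of them of the box C/D class, on chromosome 1 from 173863900 to 173868882 (GRCh38, GENCODE release 29, minus strand). It was first isolated from growth-arrested cells, and its spliced RNA can bind the glucocorticoid receptor. Its mean of 3715 normalized counts, not corrected for length, was the highest among noncoding members of the authors' deposited table, and its p was the smallest of the set, rank 18 among all tested genes. The authors' deposited table gives GAS5 a 2.29-fold rise (log2 scale 1.20, interval 1.05 to 1.34, adjusted p = 1.73e-57). This implies 5173 normalized counts in shSTAT3 cells, against 2258 in scramble cells. SNHG12 and SNHG25 also hold both box classes. The authors' deposited table has the same log2 value of 0.52 for both, but only SNHG12 passed (adjusted p = 0.00104), while SNHG25, with a mean of 17.8, did not (interval −0.11 to 1.16, adjusted p = 0.186).

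Noncoding hosts of box H/ACA RNAs alone rose in 7 of 8 cases, with a median log2 fold change of 0.81. SNHG4, the U19 host, had the highest fold change of the set, 2.65-fold by the authors' deposited table (log2 scale 1.41, interval 1.06 to 1.76, adjusted p = 8.44e-14). This implies 340 normalized counts in shSTAT3 cells, against 128 in scramble cells. DANCR, the host of SNORA26 and an RNA known for holding back differentiation of epidermal progenitors, was 2.10-fold higher by the authors' deposited table (log2 scale 1.07, interval 0.90 to 1.24, adjusted p = 7.75e-33). Its implied levels are 2243 normalized counts in shSTAT3 cells, against 1066 in scramble cells. SNHG8, the host of SNORA24, was 2.01-fold higher by the authors' deposited table (adjusted p = 6.56e-18). SNHG15, the host of SNORA9, rose by 0.77 and SNHG7, the host of the SNORA17 pair, by 0.59 in log2 units of the authors' deposited table (adjusted p = 1.38e-07 and 2.04e-09). SNHG17, with 4 SNORA71 genes, rose by 0.52 in the same units of the authors' deposited table (adjusted p = 0.00206). SNHG9, the host of SNORA78, did not pass: the authors' deposited table has it at 0.16 (adjusted p = 0.682) with a mean of 32.4.

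SNHG3 holds the U17 guides SNORA73A and SNORA73B, which act in cleavage of the ribosomal RNA precursor. The authors' deposited table gives it a 1.80-fold rise with a wide interval (log2 scale 0.85, interval 0.37 to 1.33, adjusted p = 0.00175). The standard error implied by its fold change and p was 0.243, against a median of 0.0932 for the 1118 other tested genes with a mean within 0.25 log2 units of its own, a ratio of 2.61. Of those genes 99.8% had a smaller one. The ratios of SNHG1, SNHG19 and SNHG4 were 1.31, 1.28 and 1.22, and that of GAS5 was 0.993. Which library or libraries set SNHG3 apart could not be seen without values per library.

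**Figure D2:**
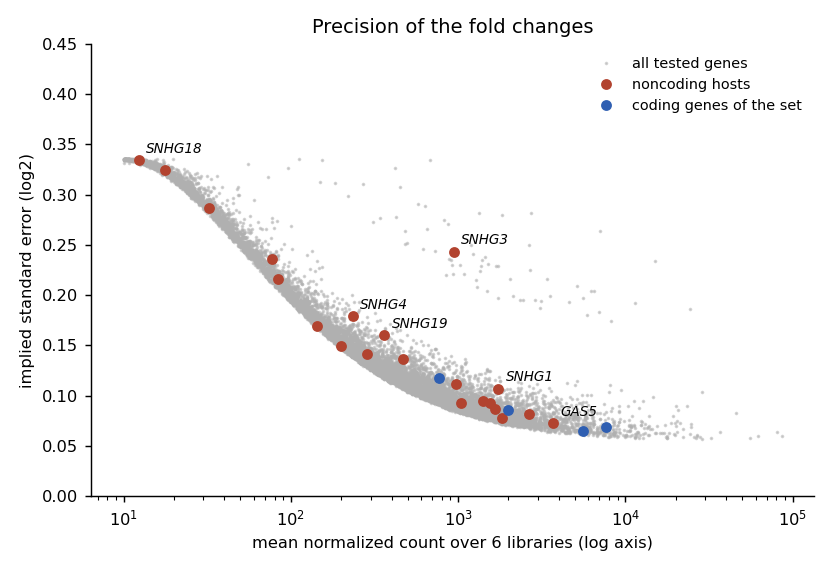
Standard error of the log2 fold change, implied by fold change and p, against the mean normalized count over the 6 libraries (log axis) for all 12061 tested genes (grey), the noncoding hosts (red) and the coding genes of the set (blue). SNHG3 lies far above the band, at 0.243 where the median of genes of like mean is 0.0932.

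Of the 3 tested noncoding hosts of Cajal body RNAs 2 rose. SNHG20, around SCARNA16, was 2.18-fold and SNHG21, around SCARNA15, 2.16-fold higher by the authors' deposited table (adjusted p = 1.6e-06 and 1.6e-05). Their means were low, 84.4 and 77.1 normalized counts, and their intervals wide, 0.70 to 1.55 and 0.65 to 1.57 on the log2 scale. SNHG10, around SCARNA13, did not pass: the authors' deposited table has it at 0.23 (adjusted p = 0.272). The medians of the 4 cargo classes of noncoding hosts, between 0.52 and 1.11, rest on 3 to 8 genes each and were not tested against each other.

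The 4 tested noncoding hosts that did not pass were SNHG25, SNHG10, SNHG9 and SNHG18. SNHG18, the host of SNORD123, had the lowest mean of the tested members, 12.3, and the authors' deposited table has it at 0.02 on the log2 scale (interval −0.63 to 0.68, adjusted p = 0.965). The intervals of SNHG18, SNHG9 and SNHG25 end at 0.68, 0.72 and 1.16, so rises of the size called for SNHG5 or SNHG12 lie within all of them. A further 4 noncoding members had no adjusted p. MEG8, which surrounds a long row of imprinted box C/D genes, and SNHG22 are listed at 0, and SNHG11 and SNHG24 had means of 0.324 and 0.160 in the authors' deposited table. RefSeq gives SNHG24 as another name of MEG8.

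Per kilobase of annotated exon the levels of the tested noncoding hosts spanned a wide range. ZFAS1 (1188 normalized counts per kilobase), SNHG6 (1127), SNHG19 (1058), SNHG8 (1046) and GAS5 (1023) led, and SNHG18 was lowest, at 6.31. SNHG19 stood beside GAS5 on this scale with a mean of 362, since it has only 342 exonic bases. Across the 21 tested noncoding hosts the log2 fold change had a Spearman correlation of 0.31 with the mean per kilobase, 0.15 with exonic length and −0.04 with the number of guides held. These are descriptions over genes that share the same 6 libraries. Together the 21 hosts made up 0.169% of all normalized counts, with an implied sum of 24880 in shSTAT3 cells, against 13985 in scramble cells, a ratio of 1.78.

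**Figure D3:**
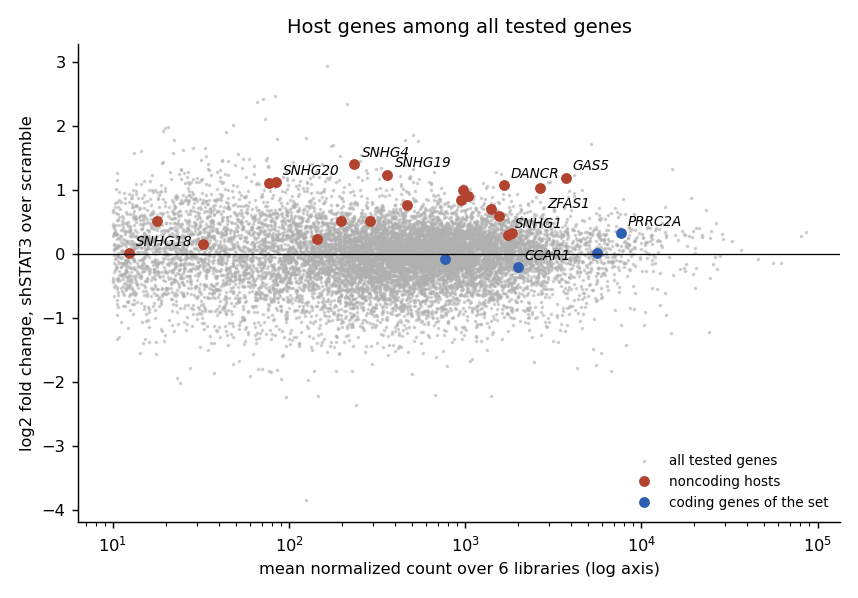
Log2 fold change of shSTAT3 over scramble against the mean normalized count over the 6 libraries (log axis), for all 12061 tested genes (grey), the 21 tested noncoding hosts (red) and the 4 coding genes of the set (blue). The noncoding hosts lie above 0 at low and high means alike, from SNHG18 at 12.3 to GAS5 at 3715.

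The coding genes of the set gave a median log2 fold change of −0.03. PRRC2A, a proline-rich protein gene around SNORA38, was 1.25-fold higher by the authors' deposited table (log2 scale 0.32, interval 0.19 to 0.46, adjusted p = 1.66e-05). CCAR1, a transcriptional coactivator gene around SNORD98, fell to 87.0% of scramble by the authors' deposited table (log2 scale −0.20, interval −0.37 to −0.03, adjusted p = 0.0448). TAF1D, a subunit gene of the RNA polymerase I initiation factor, has 8 annotated guides and a TOP tract. The authors' deposited table has TAF1D at −0.07 (interval −0.30 to 0.16, adjusted p = 0.649), and 16 of 21 noncoding hosts have intervals that start above the end of this one. The implied levels of TAF1D are 746 normalized counts in shSTAT3 cells, against 785 in scramble cells. SF1, a splicing factor gene whose protein binds the branch point, is at 0.02 in the authors' deposited table (interval −0.11 to 0.15, adjusted p = 0.822). Neither GENCODE release 29 nor RefSeq places a small nucleolar RNA inside SF1, so these annotations go against its label as a host. The 4 coding genes had an implied sum of 16714 normalized counts in shSTAT3 cells, against 15242 in scramble cells, a ratio of 1.10.

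Other coding hosts were read beside these 4. Of 32 further tested coding hosts outside the ribosomal protein genes 9 rose and 8 fell, with a median log2 fold change of 0.07. CHD8, a chromatin remodeller gene, and the translation factor genes EIF4A2 and EEF2 rose by 0.40, 0.40 and 0.29 in log2 units of the authors' deposited table. NCL, the nucleolin gene, the sorting nexin gene SNX5 and SLC25A3, a mitochondrial phosphate carrier gene, fell by 0.61, 0.71 and 0.43 in log2 units of the authors' deposited table. Of 21 tested ribosomal protein hosts 13 rose and 3 fell, with a median of 0.21. RPL27A, RPL23 and RPL12 rose by 0.48, 0.41 and 0.36, and RPL17, RPL23A and RPL3 fell by 0.85, 0.82 and 0.37 in log2 units of the authors' deposited table. RPL27A was the highest of them, and 16 of 21 noncoding hosts lay above it. RPL17 had the lowest mean of the tested ribosomal protein hosts, 391 normalized counts, against a median of 10767. Taking every protein-coding gene around an annotated guide, ribosomal protein genes aside, gave 167 tested genes, of which 37 rose and 46 fell, with a median of −0.0027. Strand was matched only where that of the guide was known, and some guides lie in several genes. RCC1 and SEC14L1, which share guides with SNHG3 and SNHG20, are among the 167, as is C6orf48, taken up below.

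**Figure D4:**
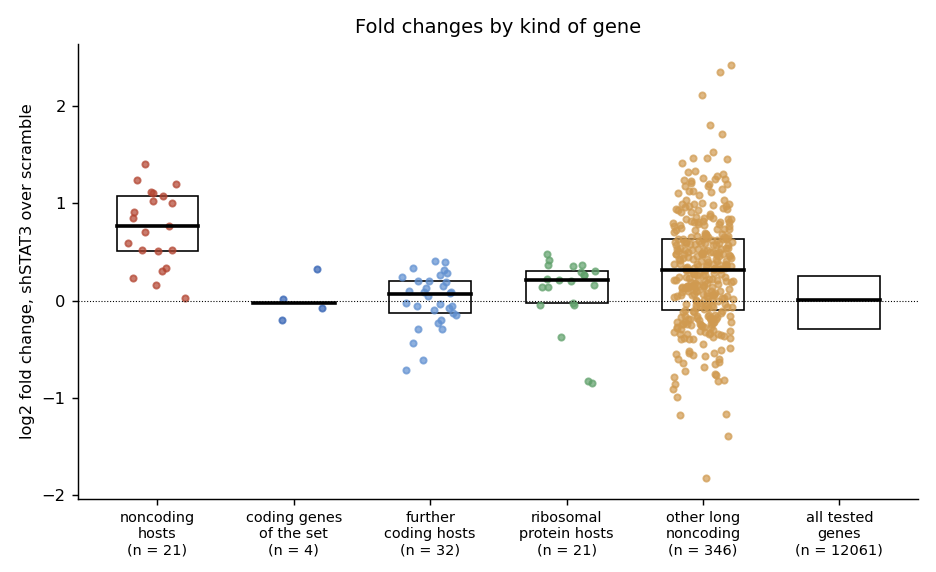
Log2 fold change of shSTAT3 over scramble by kind of gene, 1 point per gene, with the median (thick line) and the quartiles (box, for groups over 20 genes); points are left out for all tested genes. The medians are 0.77 for noncoding hosts, −0.03 for the coding genes of the set, 0.07 for further coding hosts, 0.21 for ribosomal protein hosts, 0.32 for other long noncoding genes and 0.0027 for all tested genes. The kinds of gene differ in mean count, so these medians are not compared at like level.

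Long noncoding genes in general were also more often higher than lower. Of 346 other tested genes of a long noncoding type 117 rose (33.8%) and 16 fell (4.62%), with a median log2 fold change of 0.32, beside 81.0% and 0% of the noncoding hosts. The median of the means was 42.4 normalized counts for these other genes, against 466 for the noncoding hosts. Standard errors of tested genes are larger at lower means, so the shares called do not compare the 2 groups at like precision. Fold changes at low means also look shrunken toward 0, so the 2 medians do not compare the groups at like level either. Among 2087 other tested genes with no more than 2806 exonic bases, the median length of the noncoding hosts, 17.7% rose and 18.0% fell, with a median of 0.02. Some genes that RefSeq now calls SNHG stand in the table under older names and were not in the set. LRRC75A-AS1, now SNHG29, has a mean of 13546 and was 1.66-fold higher, and C6orf48, now SNHG32, which GENCODE release 29 counts as coding, was 2.18-fold higher by the authors' deposited table (adjusted p = 1.33e-25 and 1.78e-47). LINC00888, now SNHG33, went the other way and fell to 0.682 of scramble by the authors' deposited table (log2 scale −0.55, interval −0.91 to −0.19, adjusted p = 0.00837), and C1orf204, now SNHG28, is listed at 0. A search by position found 5 tested long noncoding genes around a guide that were not members. Of these EPB41L4A-AS1, LRRC75A-AS1 and STARD7-AS1 rose, while STX18-AS1 and THAP9-AS1 did not pass, at 0.47 and 0.12 in log2 units of the authors' deposited table (adjusted p = 0.144 and 0.369). These genes were looked up after the members' values had been seen.

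Several hosts share sequence or a start region with another gene, and whether reads were counted by strand is not given in the sources used here. Values of hosts that overlap another gene are therefore uncertain. By GENCODE positions, 12 tested genes overlapped 11 tested noncoding hosts or began within 1000 bases of their start on the other strand. Of these 12 genes 4 rose and 2 fell, with a median log2 fold change of 0.10. The host had the higher fold change in 11 of 12 pairs, with SNHG4 paired to both SIL1 and MATR3. The upper quartile of all tested genes was 0.26, against a median of 0.77 for the tested noncoding hosts. Most genes set beside these hosts would therefore lie lower, so the count says little about neighbours. SNHG4 lies within MATR3 on the same strand, and MATR3, a nuclear matrix protein gene with a mean of 7246, fell by 0.46 while SNHG4 rose by 1.41 in log2 units of the authors' deposited table. RCC1, the gene of the exchange factor of Ran, begins 37 bases from SNHG3 on the same strand, and the authors' deposited table has it at 0.09 (adjusted p = 0.317). SEC14L1 overlaps SNHG20 on the same strand, and the authors' deposited table has it at −0.08 (adjusted p = 0.542). FAM69B overlaps SNHG7 on the other strand and fell by 0.42 in log2 units of the authors' deposited table (adjusted p = 0.00102). SIL1 overlaps SNHG4, TRNAU1AP overlaps SNHG12 and GLRX5 overlaps SNHG10, each on the other strand, and none passed, at 0.11, −0.18 and −0.17 in log2 units of the authors' deposited table.

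Genes with divergent starts gave mixed results. ZNFX1, a helicase gene of antiviral defence, begins 248 bases from ZFAS1 and overlaps it by GENCODE positions, but not from the printed RefSeq start. It rose by 0.92, beside 1.03 for ZFAS1, in log2 units of the authors' deposited table (interval 0.77 to 1.07, adjusted p = 2.05e-30), and the intervals of the 2 genes overlap. ZBTB37, which begins 800 bases from GAS5, rose by 0.59 and TRAF7, 340 bases from SNHG19, by 0.48 in log2 units of the authors' deposited table (adjusted p = 0.0144 and 6.24e-10). SLC3A2, the heavy chain gene of amino acid transporters, begins 188 bases from SNHG1, and the authors' deposited table has it at 0.11 (adjusted p = 0.42). Among the neighbours of noncoding hosts RPS2 was the only one above its host: it rose by 0.36 while SNHG9, 99 bases away, stood at 0.16 in log2 units of the authors' deposited table (adjusted p = 1.29e-06 for RPS2). By GENCODE positions TAF1D overlaps CEP295, C11orf54 and MED17 on the other strand. The authors' deposited table has these at −0.48, 0.13 and 0.23 (adjusted p = 4.98e-05, 0.385 and 0.0662), beside −0.07 for TAF1D. The RefSeq start of TAF1D printed above lies short of C11orf54 and MED17, so from that start neither overlaps TAF1D. How far reads of neighbours enter the counts of the hosts was not tested.

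**Figure D5:**
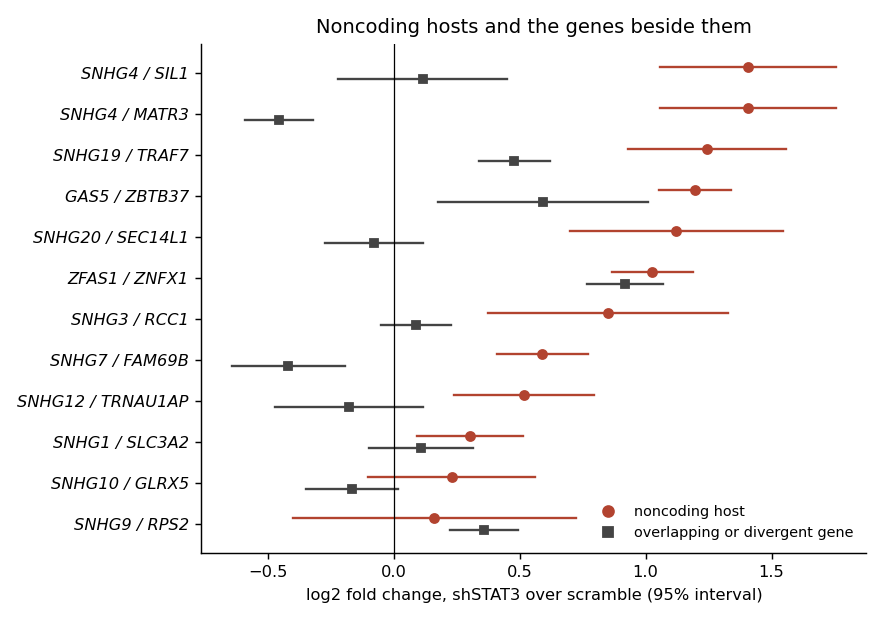
Log2 fold change of shSTAT3 over scramble with 95% intervals for noncoding hosts (red circles) and, on the same row, the tested gene that overlaps them or starts within 1000 bases on the other strand (grey squares). The host lies right of its neighbour in 11 of 12 pairs, the exception being SNHG9 and RPS2. Most tested genes would also lie left of a typical noncoding host.

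The guide RNAs themselves were barely sampled. The table lists 88 guide genes within the noncoding hosts, of which 46 have a mean above 0, with a median of 2.34 and a highest value of 45.2 normalized counts, that of SNORD22 within SNHG1, by the authors' deposited table. Only 6 of them were tested. SNORA73B, within SNHG3, rose by 1.10 and SNORD22 did not pass, at 0.52, in log2 units of the authors' deposited table (adjusted p = 0.0033 and 0.143). Of the 46 with a p-value 42 had a positive fold change, as had 132 of 166 such RNAs outside the members, and the medians were 0.14 and 0.10. SCARNA17, within SNHG22, which is itself listed at 0, has a mean of 41.1 and a log2 value of −0.08 in the authors' deposited table (adjusted p = 0.823). Reads of a guide and of unspliced host RNA cannot be told apart here, so a level of mature guide RNA cannot be read from these values.

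A TOP tract at the start was more frequent among noncoding hosts than among all tested genes. Of 17 tested noncoding hosts with a RefSeq start window 6 (35.3%) had a C followed by at least 4 further C or T at the start, against 7.72% of 9059 tested genes with a window and 5.14% of all 27305 genes in the RefSeq promoter table. When the tract could begin up to 5 bases to either side, it was found in 11 of 17 (64.7%) and in 29.9% of tested genes. The 6 hosts with a tract at the start had a median log2 fold change of 0.77, and 5 rose, all but SNHG18. The 11 without it had a median of 0.91, and 10 rose. GAS5 and SNHG1 were among those without. Each host was placed by a single RefSeq start, and that of GAS5 lies upstream of its GENCODE start. Other annotated starts were not tested, so membership of these groups rests on the start used. In all 654 tested genes with a tract at the start, ribosomal protein genes aside, 21.9% rose and the median was −0.04, against 20.5% and −0.01 in the 8331 without. TTC followed by any 3 bases and GAA, the core of the STAT binding motif and the same on both strands, stood in the windows from 250 bases before to 50 after the start of 2 of 17 noncoding hosts, DANCR and SNHG3, in that of TAF1D, and in 8.60% of tested genes. No match says only that these letters are not in the window.

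Genes for the proteins that work with the guides gave no single direction. Of 4 box C/D core protein genes FBL, the methyltransferase, and NHP2L1, also called SNU13, rose by 0.33 and 0.28, NOP58 fell by 0.56, and NOP56 did not pass, at −0.03, in log2 units of the authors' deposited table. Of 4 box H/ACA core protein genes DKC1, the pseudouridine synthase, fell by 0.29, and NHP2, NOP10 and GAR1 did not pass, at 0.15, 0.23 and 0.11, in log2 units of the authors' deposited table. Of 12 assembly factor genes 4 rose and 5 fell. Among them ZNHIT6, COIL and TGS1 rose by 0.40, 0.40 and 0.24, and NOLC1, PIH1D1 and RUVBL1 fell by 0.35, 0.38 and 0.39, in log2 units of the authors' deposited table.

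Genes of nonsense-mediated decay rose in 4 of 13 cases (30.8%) and fell in 0, beside 21.3% and 23.2% of all tested genes. Their median log2 fold change was 0.17. SMG1, the kinase that acts on UPF1, rose by 0.63, and SMG5 by 0.32, in log2 units of the authors' deposited table. Of the 4 exon junction complex genes CASC3 rose by 0.25, and EIF4A3, MAGOH and RBM8A did not pass, at −0.10, 0.05 and 0.16, in log2 units of the authors' deposited table. Regulators of TOP messages rose in 4 of 9 cases and fell in 2. LARP1, which binds the TOP start, RPTOR, a subunit gene of an mTOR complex, and TIAL1 rose by 0.41, 0.33 and 0.19, and EIF4EBP1 and EIF4EBP2, which encode inhibitors of cap binding, fell by 0.52 and 0.20, in log2 units of the authors' deposited table. Of 4 genes for enzymes of lariat opening and RNA decay XRN2 and EXOSC10 fell by 0.21 and 0.24, and DBR1 and XRN1 did not pass, at −0.07 and −0.26, in log2 units of the authors' deposited table.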

How the data were processed

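Total RNA of 3 shSTAT3 and 3 scramble cultures of REH went into TruSeq RNA v2 libraries, per the labels' protocols. Tools listed in the submitters' processing notes are DESeq2, featureCounts, Picard, Bowtie2, Trimmomatic and bcl2fastq (version 2.19), in no stated order, and the build is hg38. For annotation, strand setting and model, the sources used here give nothing. The authors' mean is a normalized signal, a read count over a size factor, per the file headers. Their fold change is on the log2 scale and has a p-value with its Benjamini-Hochberg adjusted form, per the file headers.

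Genes with an adjusted p (12061, lowest mean 10.0) are called tested, and a call is an adjusted p under 0.05. Missing adjusted p-values stayed missing. A planned count model was not run, since the table holds no counts per library. Standard errors are the fold change over the normal quantile of p, and 95% intervals follow from them. Implied group levels assume 3 libraries a group and take the deposited fold changes as they stand. These look shrunken toward 0 at low means, and where they were, the implied differences between the groups are too small. This arithmetic was tested on simulated data. The members and lists were chosen with earlier results of these data known. Named are all tested members, up to 3 called genes per direction of the other lists, every gene of lists of at most 6, and tested genes that overlap a host or start within 1000 bases of it. A gene that this rule names is not reported here.

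Positions, types and exon lengths came from GENCODE 29 (23701 symbols matched), and 570 guides from GENCODE 29 and RefSeq, both on GRCh38. RefSeq start windows were found for 17 of 21 tested noncoding hosts and 4 of 4 coding genes. The normalized counts of a library summed to 11485068 on average. Calculations used Python 3.11.15 (numpy 2.4.6, pandas 2.3.3, scipy 1.17.1; figures with matplotlib 3.10.9).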

Additional observations from a re-analysis of the deposited data

How the results depend on the processing

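The count of 17 noncoding hosts that rose was 16 at an adjusted p under 0.01, 17 at 0.1, with every gene that has a p and with a mean of at least 50, and 13 when at least a 1.5-fold change was asked for, and none fell in any of these. The coding genes that fell numbered 0, in place of 1, at an adjusted p under 0.01, with every gene that has a p (CCAR1, adjusted p = 0.0649, against 0.0414 at a mean of at least 50) and at 1.5-fold, and those that rose numbered 0, in place of 1, at 1.5-fold. All genes called numbered 2091, in place of 5369, at 1.5-fold. The median log2 fold change of the noncoding hosts lay between 0.71 and 0.88 over its alternatives. That of the coding genes was −0.03 and lay between −0.07 (without SF1, added after the data were seen) and 0.04 (with the further coding hosts), so its sign depends on the choice of genes. Of 47 checks on single members 46 kept their side of the threshold, CCAR1 being the exception. These checks only redid the adjustment of p over another set of genes, and the settings of 0.01, 0.1 and 1.5-fold were not among them. No paired analysis was possible because the deposited table holds no value per library, and leaving out each replicate was not run for the same reason. Means were low for SNHG18, SNHG9 and SNHG25 (12.3, 32.4 and 17.8 normalized counts), and their intervals are wide. The cause of the low values of the guide RNAs was not tested.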
